A study of Mus musculus with 41 samples.

Results

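The comparison of nonescalating with saline mice at 24 h after the end of long-access intravenous self-administration rested on 14 of the 41 libraries, 9 nonescalating and 5 saline. The members were chosen by the labels: every immunopurified library labelled 24 h in these 2 groups, with the withdrawal libraries (about 1 month) and the input libraries left out, and all gene rows kept. Nonescalating mice took cocaine and were labelled as the group that did not escalate its intake, and saline mice self-administered saline. All 14 libraries came from the dorsal striatum of adult mice of the Drd1-TRAP line CP73, of a strain made from FVB/N-Swiss Webster by at least 9 generations of crosses to C57BL/6. In this line a transgene under the control of Drd1 makes the ribosomal protein Rpl10a fused to EGFP, so that an antibody to EGFP pulls down ribosomes with the mRNA bound to them from cells that express Drd1. Both groups carried the transgene, and the label gives a single transgenic line, so an effect of the insertion site would be shared by all libraries. Exact ages, sexes and cocaine doses were not given in the sources used here. The labels do not say that each library came from a separate mouse, so p-values measure only the spread between these libraries.

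Medium spiny neurons are the GABA-releasing output neurons of the striatum, and those of the direct pathway express the D1 dopamine receptor. This receptor raises cyclic AMP through the G protein subunit encoded by Gnal, which activates protein kinase A and, downstream, ERK signalling, while phosphodiesterases degrade cyclic AMP. Cocaine blocks the dopamine transporter, so D1 neurons receive more dopamine during self-administration, and the dorsal striatum is known for its part in habitual drug taking.

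Total gene counts of the 14 libraries lay between 5394332 and 12889230, with a median of 10429114.5, and 11856 to 17031 genes had at least 1 count. Saline replicate 5 stood apart from the rest. It had the lowest total and the fewest detected genes, and 42.3% of its counted read pairs fell on no gene, against 15.9% to 30.8% in the other 13 libraries. The 13 astrocyte markers summed to 168 to 487 CPM (counts per 1e6 counts) in the nonescalating libraries, against 1287 CPM in saline replicate 5 and 162 to 418 CPM in the other 4 saline libraries. The 13 endothelial and mural cell markers summed to 34.7 to 988 CPM in the nonescalating libraries, against 2123 CPM in saline replicate 5 and 24.5 to 599 CPM in the other 4 saline libraries. Values without saline replicate 5 are given beside many of the genes and lists that it moved.

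**Figure D1:**
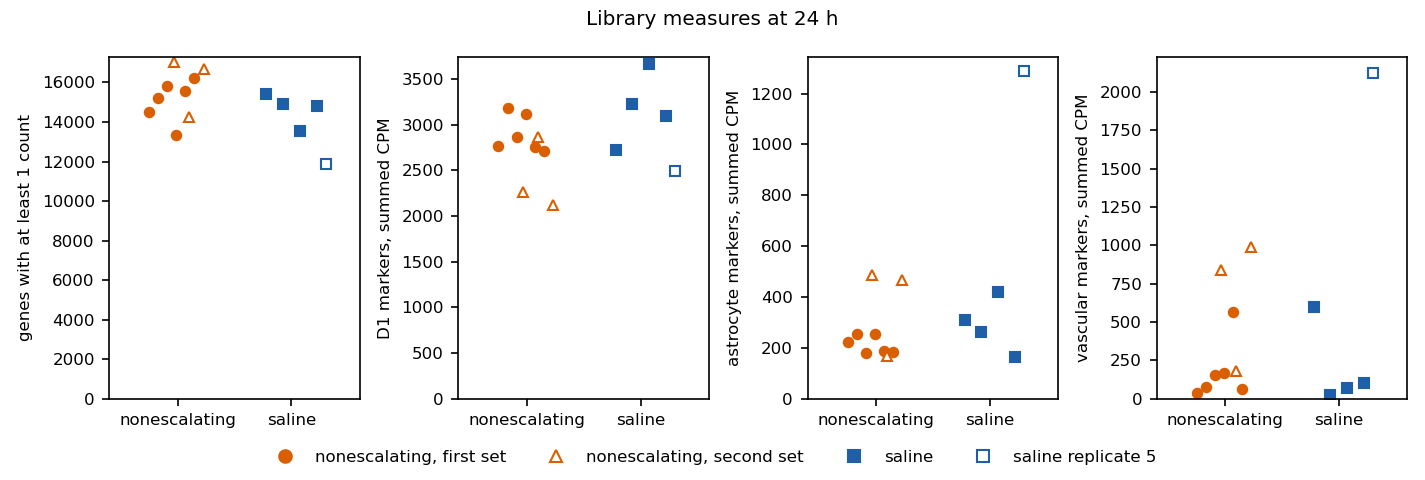
Values of each library at 24 h (points; filled circles, first nonescalating set; open triangles, second nonescalating set; squares, saline; open square, saline replicate 5), with vertical axes in genes or in CPM starting at 0. Saline replicate 5 lies at 11856 genes, 1287 CPM of astrocyte markers and 2123 CPM of endothelial and mural (vascular) markers.

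Markers of D1 neurons were abundant in the purified RNA. Drd1 averaged 614 ± 92.3 CPM in nonescalating libraries and 634 ± 161 CPM in saline libraries (SD, n = 9 and n = 5). Drd2, the receptor of the indirect pathway, averaged 21.9 ± 11.5 CPM in nonescalating and 31.1 ± 16.4 CPM in saline libraries. The 12 markers of D2 neurons summed to 161 to 426 CPM in nonescalating libraries and to 210 to 589 CPM in saline libraries. Penk, 1 of these 12, averaged 165 CPM in nonescalating and 173 CPM in saline libraries. That was above some D1 markers, such as Isl1 (24.9 CPM in nonescalating and 34.9 CPM in saline libraries), and below others, such as Drd1. The 11 markers of D1 neurons summed to 2123 to 3178 CPM in nonescalating libraries and to 2499 to 3665 CPM in saline libraries, and all 11 were detected. The 12 microglial markers summed to at most 16.4 CPM in nonescalating libraries and, apart from 44.5 CPM in saline replicate 5, at most 13.6 CPM in saline libraries, and Cx3cr1, P2ry12, Tmem119, C1qa, C1qc and Trem2 were at 0 in at least 7 libraries. Of 18 measures per library (depth, read shares and summed markers), none differed between the groups after adjustment (two-sided exact permutation tests, lowest adjusted p = 0.665). In bulk libraries, fewer cells of a type and less RNA per cell cannot be told apart.

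Across 13437 genes tested, 0 passed an adjusted p under 0.05 (0% of genes) in edgeR's quasi-likelihood test with Benjamini-Hochberg adjustment, and the lowest adjusted p was 0.109. At an unadjusted p under 0.05, 571 genes were higher in nonescalating libraries (4.25%) and 1030 were lower (7.67%), or 721 (5.22%) and 827 (5.99%) without saline replicate 5. DESeq2 called 117 genes (0.871%), 42 higher (0.313%) and 75 lower (0.558%). A fit over all 39 purified libraries called 276 of 15190 genes (1.82%), 66 higher (0.434%) and 210 lower (1.38%). Limma with weights for library quality, which gave saline replicate 5 a weight of 0.119, called 36 (0.268%), every one of them lower. A set of 11 genes was called by DESeq2, by limma with quality weights and by the fit over all 39 libraries, and they were lower in all of these: Car11, Ino80c, Kcna2, Klf7, Pde4a, Pkd2l2, Rph3a, Srrm2, Ttc7b, Zmat3 and 9930021J03Rik. These fits share the same nonescalating and saline libraries and limma called only lower genes, so this overlap is no independent check. The median log2 fold change over all genes was -0.01. In simulated counts of the same libraries, the edgeR test found 30% of genes with a 2-fold change and 79% of genes with a 4-fold change, so differences of the sizes given here could be missed.

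The leading differences were 12 lower and 12 higher genes, taken by the lowest p among genes with a mean of at least 5 CPM. The lower genes included Ttc7b, a scaffold subunit of the plasma membrane phosphatidylinositol 4-kinase complex, Pde4a, a phosphodiesterase that degrades cyclic AMP, Spred2, an inhibitor of Ras and ERK signalling, and Kcna2, a voltage-gated potassium channel subunit. The higher genes included Tmcc2, Actl6b, a neuron-specific subunit of the BAF chromatin remodelling complex, and Fth1, the heavy chain of ferritin. None of the 24 passed the adjusted test, with adjusted p of 0.195 to 0.198 among the higher and 0.109 to 0.183 among the lower genes.

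Ttc7b (chromosome 12, 100300770 to 100520826, minus strand, GRCm38) had 165 CPM in the lowest, 200 in the median and 282 in the highest nonescalating library. The 5 saline libraries had 304, 344, 687, 365 and 385 CPM in replicates 1, 2, 3, 5 and 6, the order used for saline values throughout. Every nonescalating library lay below every saline library, and saline replicate 3 stood above the other saline libraries. The log2 fold change was -0.97 ± 0.17 (SE, edgeR adjusted p = 0.109), and -1.02 without saline replicate 5 (adjusted p = 0.0707). It was called without saline replicate 1 (-1.07, adjusted p = 0.0454). Without saline replicate 3, its highest saline library, 0 genes were called (lowest edgeR adjusted p of any gene 0.128). Of the other 10 tested genes of phosphatidylinositol 4-kinase complexes, none reached an unadjusted p under 0.05, which 4.25% of all genes reached as higher and 7.67% as lower. Without saline replicate 5, 1 of the 10 was higher at that p, against 5.22% of all genes. Pi4ka, the catalytic subunit, averaged 622 CPM in nonescalating and 657 CPM in saline libraries (-0.08 ± 0.13).

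Pde4a (chromosome 9, 21165714 to 21213248) had 48.2, 78.0 and 86.9 CPM in the lowest, median and highest nonescalating library. The saline libraries had 94.8, 124, 180, 194 and 115 CPM. The groups did not overlap, and all saline values were above the highest nonescalating value. The log2 fold change was -0.91 ± 0.17 (edgeR adjusted p = 0.129), and -0.77 without saline replicate 5. Among 18 phosphodiesterase genes tested, 1, Pde4a, was lower and 0 were higher at an unadjusted p under 0.05, against 7.67% and 4.25% of all genes. Without saline replicate 5, 2 were lower and 0 higher, against 5.99% and 5.22%. The list had 10 positive and 8 negative fold changes with a median of 0.03 (12 and 6, median 0.15, without saline replicate 5). Pde4b, another cyclic AMP phosphodiesterase, averaged 414 CPM in nonescalating and 510 CPM in saline libraries (-0.30 ± 0.15, or -0.39 and an unadjusted p of 0.0109 without saline replicate 5), and Pde1b, which is abundant in striatum, 936 CPM in nonescalating and 847 CPM in saline libraries (0.15 ± 0.15).

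Spred2 (chromosome 11, 19924375 to 20024026) had 126, 189 and 232 CPM in the lowest, median and highest nonescalating library, against 258, 294, 485, 279 and 328 CPM in the saline libraries. The groups did not overlap. The log2 fold change was -0.83 ± 0.17 (edgeR adjusted p = 0.129) and -0.89 without saline replicate 5. Of 15 ERK feedback inhibitors tested, Spred2 and Nf1, a Ras GTPase-activating protein (321 CPM in nonescalating and 382 CPM in saline libraries, -0.25 ± 0.12), were lower at an unadjusted p under 0.05, against 7.67% of all genes, and none was higher. Without saline replicate 5, 12 of the 15 fold changes were negative, against 6609 of 13811 among all genes, and 4 were lower at that p, against 5.99% of all genes. These included Spred1 (-0.41) and Spred3 (-0.51), which encode relatives of Spred2, while Nf1 was at -0.19 and did not reach that p.

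Kcna2 (chromosome 3, 107101146 to 107115005) had 302, 345 and 462 CPM in the lowest, median and highest nonescalating library. The saline libraries had 564, 524, 580, 585 and 517 CPM, a narrow range that lay wholly above the nonescalating one. The log2 fold change was -0.59 ± 0.12 (edgeR adjusted p = 0.129), and leaving out each library in turn moved it between -0.63 and -0.56. Of 43 potassium channel genes tested, 29 had a negative fold change, against 6860 of 13437 among all genes. At an unadjusted p under 0.05, 7 were lower and 0 higher, against 7.67% and 4.25% of all genes (6 lower and 1 higher without saline replicate 5, against 5.99% and 5.22%). The median of the list was -0.14, with and without saline replicate 5. Kcnc1, which encodes a fast-spiking delayed rectifier, averaged 99.3 ± 16.3 CPM in nonescalating and 154 ± 35.2 CPM in saline libraries (-0.63 ± 0.16). Kcnk2, a tandem-pore potassium channel, depended on saline replicate 5, at -1.07 with it and -0.17 without it.

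**Figure D2:**
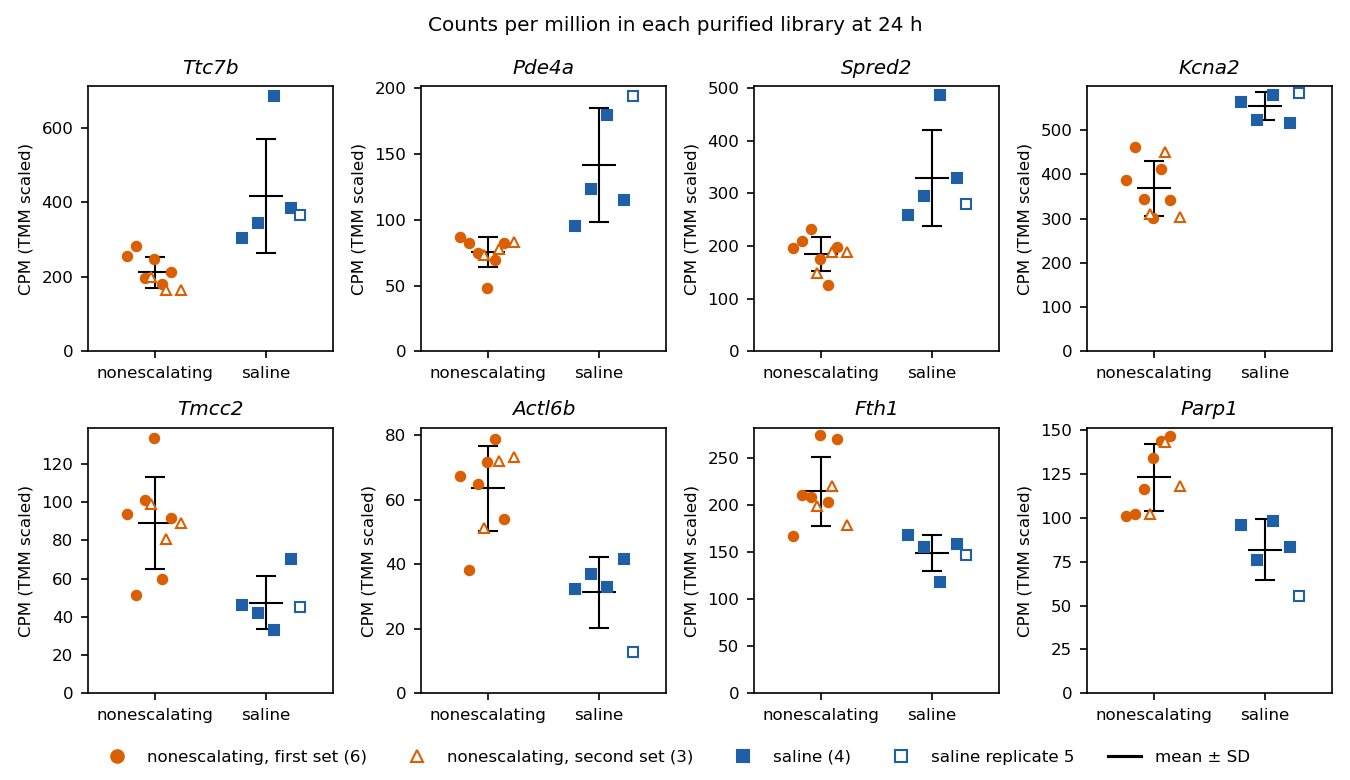
CPM in each library (points) with mean ± SD (black) for 4 genes lower (upper row) and 4 genes higher (lower row) in nonescalating than in saline libraries; axes start at 0. For Ttc7b, Pde4a, Spred2, Kcna2 and Parp1 the groups do not overlap, while for Tmcc2, Actl6b and Fth1 they do.

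Of the other lower genes, Klf7, a Krüppel-like transcription factor of developing neurons, averaged 55.6 ± 19.6 CPM in nonescalating and 130 ± 71.5 CPM in saline libraries (-1.22 ± 0.26, or -0.86 without saline replicate 5). Car11, a carbonic anhydrase-related protein, averaged 166 ± 29.7 CPM in nonescalating and 316 ± 134 CPM in saline libraries (-0.93 ± 0.18, or -0.64 without saline replicate 5). Rph3a, which encodes rabphilin, a synaptic vesicle protein, averaged 305 ± 51.2 CPM in nonescalating and 476 ± 73.5 CPM in saline libraries (-0.64 ± 0.14, or -0.70 without that library). Zfp385b, a zinc finger protein, averaged 205 ± 26.8 CPM in nonescalating and 341 ± 128 CPM in saline libraries (-0.73 ± 0.16, or -0.49). The remaining 4 moved by over 1.5 times without saline replicate 5. Thap6 had 0.701 to 9.00 CPM in the nonescalating libraries, against 321 CPM in that library and 1.12 to 3.34 CPM in the other saline libraries, and its log2 fold change was -4.48 with it and 0.20 without it. Nod2, an innate immune receptor, was at -3.84 with it and -1.91 without it, Adgrd1, an adhesion G protein-coupled receptor, at -2.71 and -1.26, and Gdpgp1 at -1.84 and -0.98.

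Tmcc2 (chromosome 1, 132356315 to 132391281), an endoplasmic reticulum membrane protein, had 51.3, 91.6 and 134 CPM in the lowest, median and highest nonescalating library. The saline libraries had 46.2, 41.9, 33.3, 45.1 and 70.4 CPM. Only saline replicate 6 reached into the nonescalating range. The log2 fold change was 0.91 ± 0.21 (edgeR adjusted p = 0.195). Actl6b (chromosome 5, 137553517 to 137569582) had 38.2, 67.2 and 78.9 CPM in the lowest, median and highest nonescalating library and 32.5, 37.0, 33.1, 12.7 and 41.5 CPM in the saline libraries. All but the lowest nonescalating library lay above the saline range, with a log2 fold change of 1.01 ± 0.24 (0.82 without saline replicate 5).

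The other higher genes were less abundant or differed less. Fth1 averaged 215 ± 36.4 CPM in nonescalating and 149 ± 19.2 CPM in saline libraries (0.52 ± 0.15). Parp1, which encodes a poly(ADP-ribose) polymerase of the DNA damage response, averaged 123 ± 19.1 CPM in nonescalating and 81.7 ± 17.3 CPM in saline libraries (0.59 ± 0.16), and Cct4, a subunit of the cytosolic chaperonin, 56.3 ± 4.87 CPM in nonescalating and 36.7 ± 6.67 CPM in saline libraries (0.62 ± 0.17). For Parp1 and Cct4 every nonescalating library lay above every saline library. Clip2, a microtubule-binding protein, Nell2, a secreted neuronal glycoprotein, Sf3b3, a splicing factor subunit, Sar1a, a GTPase of vesicle budding from the endoplasmic reticulum, Snx17, an endosomal sorting nexin, and Abcf2 had log2 fold changes between 0.51 and 1.83. Without saline replicate 5 the 12 higher genes lay between 0.43 and 1.55.

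**Figure D3:**
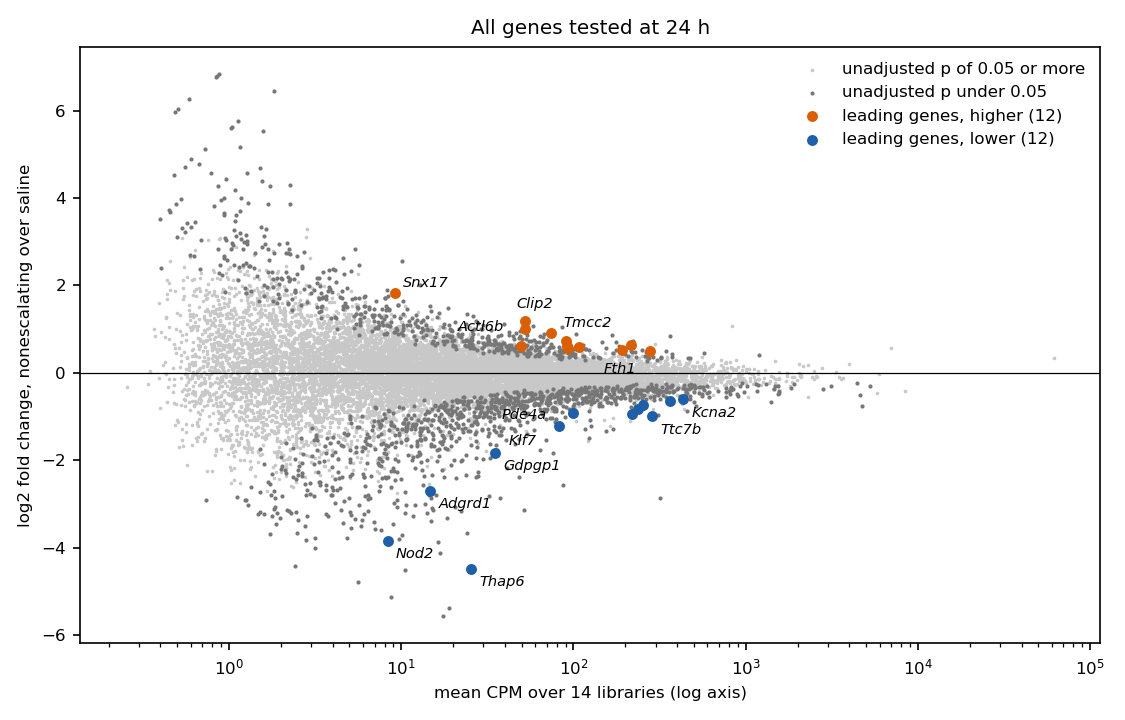
Log2 fold change of nonescalating over saline libraries against mean CPM over the 14 libraries (log axis) for the 13437 genes tested (points). The 12 higher and 12 lower leading genes are coloured; the lower genes with the most negative values, Thap6 (-4.48), Nod2 (-3.84) and Adgrd1 (-2.71), move to 0.20, -1.91 and -1.26 without saline replicate 5.

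Counting genes whose groups did not overlap gave 18 higher (0.134%) and 14 lower (0.104%) among all genes tested, or 42 and 44 (0.313% and 0.327%) without saline replicate 5. Among genes of at least 5 CPM the higher set also held Taf12, a subunit of a general transcription factor, Klhl12, Atpaf2, an assembly factor of the mitochondrial ATP synthase, Usp20, a deubiquitinase, Tm9sf1 and Hccs, the holocytochrome c synthase. Taf12, for example, averaged 11.2 ± 4.48 CPM in nonescalating and 3.27 ± 1.92 CPM in saline libraries (1.76 ± 0.50), and Usp20 averaged 45.9 ± 10.1 CPM in nonescalating and 28.4 ± 7.43 CPM in saline libraries (0.69 ± 0.22). The lower set also held Slc30a2, a zinc transporter, Zswim5, Fuca2, a fucosidase, and Pkd2l2. Zswim5 averaged 132 ± 15.7 CPM in nonescalating and 196 ± 31.9 CPM in saline libraries (-0.57 ± 0.16), and Fuca2 12 ± 3.66 CPM in nonescalating and 26.1 ± 4.18 CPM in saline libraries (-1.12 ± 0.32).

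The promoters of Ttc7b and Spred2, from 250 bases before to 50 bases after an annotated start, are shown as examples without and with the core of a cyclic AMP response element, chosen after their letters were seen from leading genes whose groups did not overlap. Cyclic AMP acts on transcription through CREB, which binds the cyclic AMP response element TGACGTCA. The sequences are from RefSeq (GRCm38.p6), at chr12:100520773-100521072 on the minus strand for Ttc7b and chr11:19924192-19924491 on the plus strand for Spred2, and capitals mark the core TGACG or its reverse complement CGTCA.
Ttc7b: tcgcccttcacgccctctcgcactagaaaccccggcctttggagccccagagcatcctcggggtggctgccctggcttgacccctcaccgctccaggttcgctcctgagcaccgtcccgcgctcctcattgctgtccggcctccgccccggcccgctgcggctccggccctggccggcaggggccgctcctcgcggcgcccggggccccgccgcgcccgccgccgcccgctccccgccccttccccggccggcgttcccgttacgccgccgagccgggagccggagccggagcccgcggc
Spred2: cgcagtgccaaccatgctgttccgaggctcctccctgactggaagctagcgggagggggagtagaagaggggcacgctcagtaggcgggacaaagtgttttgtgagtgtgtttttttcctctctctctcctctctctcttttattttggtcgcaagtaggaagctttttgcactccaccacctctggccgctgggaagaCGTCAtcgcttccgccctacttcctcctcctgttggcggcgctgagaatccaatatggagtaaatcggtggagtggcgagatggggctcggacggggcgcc
Spred2, with 1 entry, holds 1 such core, and neither of the 2 overlapping Ttc7b entries, of which 1 is printed, holds one. Pde4a has 3 entries, of which 1 holds a core. Of the 24 leading genes, 19 had a promoter entry, and the core was found, on either strand, in 5 of 9 higher genes (Abcf2, Clip2, Fth1, Sar1a and Snx17) and in 3 of 10 lower genes (Pde4a, Spred2 and Zfp385b), against 23.0% of all genes with an entry. The full element was in 0 of the 19 and in 2.03% of all genes. These matches are a description of the letters only.

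The 9 nonescalating libraries carry replicate numbers 1 to 6 and then 1 to 3 again, and the labels do not say what separates these 2 sets. Across 14456 genes, 0 differed between the second and the first set by edgeR (lowest adjusted p = 0.0738), and 642 (4.44%) had an unadjusted p under 0.05, 473 higher (3.27%) and 169 lower (1.17%) in the second set. DESeq2 called 1 gene, Nat8l, the enzyme that makes N-acetylaspartate, named here after its values were seen. Nat8l averaged 445 ± 234 CPM in the second set (n = 3) and 164 ± 36.9 CPM in the first set (n = 6), and 156 ± 14.7 CPM in saline libraries. All 3 libraries of the second set were above the 6 of the first. None of the 24 leading genes had an unadjusted p under 0.05 between the sets. Summed astrocyte markers lay between 168 and 487 CPM in the second set and between 181 and 254 CPM in the first. Endothelial and mural markers summed to 183 to 988 CPM in the second set and 34.7 to 565 CPM in the first. The D1 markers summed to 2123 to 2862 CPM and 2711 to 3178 CPM. Read pairs on no gene made up 20.4% to 30.8% in the second set and 16.5% to 21.9% in the first. The part of these measures in the differences between the sets was not tested. Against saline, Ttc7b was at -0.85 in the first set and -1.24 in the second, Pde4a at -0.92 and -0.86, Kcna2 at -0.55 and -0.64, and Actl6b at 0.99 and 1.05. The leading genes were chosen by their p with both sets together, and both sets share the saline libraries. Likeness of the 2 sets in these genes is therefore no independent check.

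**Figure D4:**
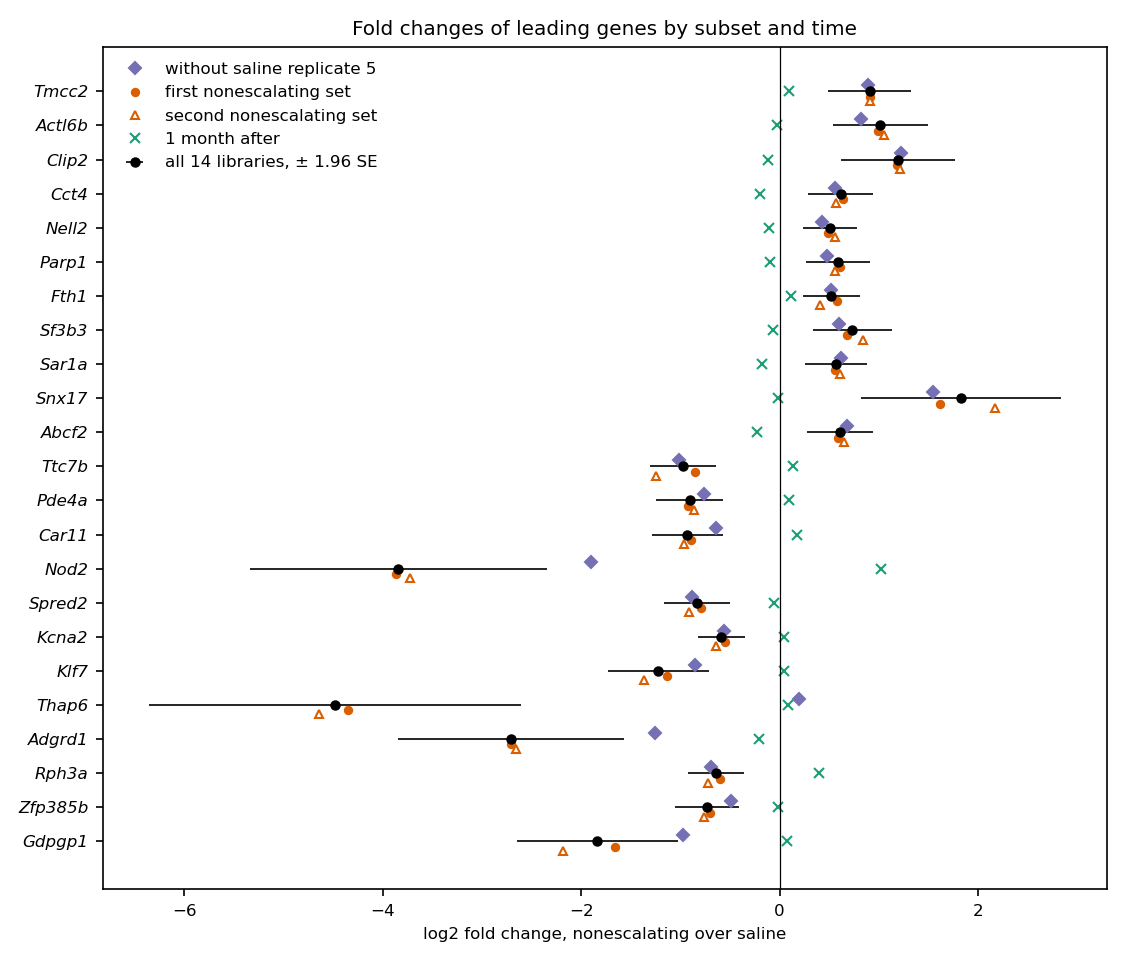
Log2 fold change of nonescalating over saline for 23 of the 24 leading genes with all 14 libraries (black, with 1.96 standard errors), without saline replicate 5 (diamonds), with each nonescalating set (circles and triangles) and at 1 month (crosses). At 1 month the values of the 11 higher genes drawn lie between -0.22 and 0.12 and those of the 12 lower genes between -0.21 and 1.03; Thap6 moves to 0.20 without saline replicate 5.

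At 1 month after self-administration, with 11 nonescalating and 5 saline libraries, none of the 24 genes passed the test between the groups (edgeR adjusted p above 0.99 for each). The 24 were chosen by their p at 24 h, where none passed either, so this count alone does not show that differences were lost. The difference between the 2 times was tested in a fit of all 39 purified libraries. Ttc7b was the 1 gene of 15190 for which it passed (0.00658%), at -1.10 ± 0.20 for 24 h minus 1 month (edgeR adjusted p = 0.0460); its log2 fold change at 1 month was 0.13 ± 0.14. Without saline replicate 5 the test called 3 genes, Ttc7b (-1.16), Srrm2, a splicing factor (-0.74), and Atic, an enzyme of purine synthesis (2.19). Saline replicate 3 at 24 h, the highest 24 h saline library for Ttc7b, was kept in both fits.

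The 5 escalating libraries at 24 h, which share the saline libraries as controls, are given side by side. Ttc7b averaged 205 CPM in escalating libraries, 212 CPM in nonescalating libraries and 417 CPM in saline libraries, and Pde4a averaged 76.3 CPM in escalating, 75.3 CPM in nonescalating and 141 CPM in saline libraries. Kcna2 averaged 446 CPM in escalating, 369 CPM in nonescalating and 554 CPM in saline libraries. Actl6b averaged 33.2 CPM in escalating, 63.5 CPM in nonescalating and 31.3 CPM in saline libraries. No gene differed between escalating and nonescalating libraries by edgeR (0 of 13437; 537, or 4%, at an unadjusted p under 0.05, 243 higher (1.81%) and 294 lower (2.19%) in escalating libraries) or by DESeq2 (0). Of the 24 leading genes, Actl6b, Clip2, Fth1, Nell2, Tmcc2, Kcna2 and Rph3a had an unadjusted p under 0.05 in that contrast, which shares the nonescalating libraries by which these genes were chosen. The escalating minus nonescalating log2 difference of Actl6b was -0.93 ± 0.24 (edgeR adjusted p above 0.99).

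Among 26 genes of dopamine and cyclic AMP signalling, 12 had positive and 14 negative fold changes (17 and 9 without saline replicate 5), and the median was -0.0008 with all libraries and 0.13 without saline replicate 5. At an unadjusted p under 0.05, 1 was higher and 4 were lower, against 4.25% and 7.67% of all genes; without saline replicate 5, 2 were higher and 3 lower, against 5.22% and 5.99%. Prkaca, the catalytic subunit of protein kinase A, averaged 159 ± 31.3 CPM in nonescalating and 237 ± 82.9 CPM in saline libraries (-0.57 ± 0.20, edgeR adjusted p = 0.252). Without saline replicate 5 it was at -0.74 (adjusted p = 0.129), and limma with quality weights called it (adjusted p = 0.0269). Gnal averaged 2901 CPM in nonescalating and 3540 CPM in saline libraries (-0.29 ± 0.14), and Ppp1ca, a catalytic subunit of protein phosphatase 1, 123 ± 35.1 CPM in nonescalating and 66.6 ± 33.7 CPM in saline libraries (0.88 ± 0.29). The log2 fold change of Drd1 was -0.05, with a 95% interval of -0.32 to 0.23, and 0.09 ± 0.13 without saline replicate 5.

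Neuropeptides and activity-dependent genes did not pass the test either. Pdyn, the precursor of dynorphin made by D1 neurons, averaged 204 ± 39.1 CPM in nonescalating and 162 ± 62.8 CPM in saline libraries (0.33 ± 0.20, 95% interval -0.07 to 0.73, or 0.14 ± 0.16 without saline replicate 5). Tac1, the precursor of substance P, averaged 259 ± 117 CPM in nonescalating and 282 ± 142 CPM in saline libraries, and Penk, the precursor of enkephalin, 165 ± 61.7 CPM in nonescalating and 173 ± 24.2 CPM in saline libraries. Of 20 immediate early genes tested, 12 had positive fold changes, with a median of 0.14 (13, median 0.05, without saline replicate 5), and the median was 0.27 with the first nonescalating set and -0.39 with the second. Fosb, whose product accumulates with repeated cocaine, averaged 24.9 ± 7.81 CPM in nonescalating and 31.4 ± 13.8 CPM in saline libraries (-0.34 ± 0.31, or -0.57 without saline replicate 5), Egr1 833 ± 208 CPM in nonescalating and 992 ± 336 CPM in saline libraries (-0.25 ± 0.20, or -0.40 without saline replicate 5) and Arc 58.9 ± 32.6 CPM in nonescalating and 60.9 ± 37.4 CPM in saline libraries (-0.05 ± 0.39). Egr3 (505 CPM in nonescalating and 628 CPM in saline libraries, -0.32 ± 0.14) was lower and Ier5 (40.7 CPM in nonescalating and 24.6 CPM in saline libraries, 0.72 ± 0.32) higher at an unadjusted p under 0.05. Without saline replicate 5, 0 of the 20 were higher and 4 were lower at that p, against 5.22% and 5.99% of all genes; Fosb, Egr1 and Egr3 were among the 4, and Ier5, at 0.49 ± 0.26, did not reach it.

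Genes of inhibitory and postsynaptic signalling lay mostly below 0. Of 14 GABA receptor subunits tested, 13 had negative fold changes, with a median of -0.31, against a median of -0.01 and 6860 negative values among 13437 genes. At an unadjusted p under 0.05, 2 of the 14 were lower, against 7.67% of all genes (6 of 14 without saline replicate 5, against 5.99%). Gabbr1, a subunit of the metabotropic GABA receptor, averaged 487 ± 103 CPM in nonescalating and 682 ± 84.3 CPM in saline libraries (-0.49 ± 0.14, edgeR adjusted p = 0.198). Of 31 postsynaptic scaffold and adhesion genes, 26 had negative fold changes, with a median of -0.20, and 5 were lower and 0 higher at an unadjusted p under 0.05, against 7.67% and 4.25% of all genes (8 lower and 1 higher without saline replicate 5, against 5.99% and 5.22%). Nlgn3, a postsynaptic adhesion protein that binds neurexins, averaged 239 ± 30.6 CPM in nonescalating and 352 ± 77.2 CPM in saline libraries (-0.56 ± 0.13). Sipa1l1, a regulator of dendritic spines, averaged 1039 ± 189 CPM in nonescalating and 1377 ± 277 CPM in saline libraries (-0.41 ± 0.13), and Homer2, another scaffold protein, was at -1.93 with saline replicate 5 and -0.16 without it.

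Of 32 synaptic vesicle and release genes, 15 had positive and 17 negative fold changes, and 2 were higher and 4 lower at an unadjusted p under 0.05, against 4.25% and 7.67% of all genes. Cplx1 averaged 320 ± 38.9 CPM in nonescalating and 431 ± 113 CPM in saline libraries (-0.43 ± 0.14), and Syn1, which tethers vesicles, 659 ± 175 CPM in nonescalating and 961 ± 231 CPM in saline libraries (-0.54 ± 0.18). Of 23 sodium and calcium channel genes, 13 had negative fold changes, with a median of -0.02 (16, median -0.03, without saline replicate 5). At an unadjusted p under 0.05, 4 were lower and 0 higher, against 7.67% and 4.25% of all genes (3 and 0 without saline replicate 5). Cacna2d2, an auxiliary calcium channel subunit, averaged 121 ± 22.9 CPM in nonescalating and 172 ± 17.9 CPM in saline libraries (-0.51 ± 0.15), and its groups did not overlap. Cnr1, the cannabinoid receptor, averaged 216 ± 39 CPM in nonescalating and 302 ± 48.8 CPM in saline libraries (-0.48 ± 0.16), and Asic1, an acid-sensing channel, 91.8 ± 14.6 CPM in nonescalating and 148 ± 86.3 CPM in saline libraries (-0.69 ± 0.27, or -0.95 without saline replicate 5, edgeR adjusted p = 0.0707).

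Of 78 cytosolic ribosomal protein genes, 46 had positive fold changes (median 0.06), 4 of them at an unadjusted p under 0.05, against 4.25% of all genes, among them Rpl8 (45.5 ± 10.8 CPM in nonescalating and 24.7 ± 10.7 CPM in saline libraries, 0.88 ± 0.26). The median of the 78 was 0.17 with the first nonescalating set and -0.16 with the second. Of 77 nuclear-encoded genes of oxidative phosphorylation, 39 were positive, with a median of 0.01. Without saline replicate 5, 21 were positive and 56 negative, with a median of -0.15 against 0.02 for all genes. Of the 77, 2 were then higher and 5 lower at an unadjusted p under 0.05, against 5.22% and 5.99% of all genes. With all saline libraries, the median was 0.14 with the first nonescalating set and -0.30 with the second. Of 11 ferritin and iron handling genes, 7 were positive, with a median of 0.18, against 6577 of 13437 positive among all genes. Without saline replicate 5, 11 of 11 were positive (median 0.38), against 7202 of 13811 among all genes. The ferritin and iron median, with all saline libraries, was -0.01 with the first nonescalating set and 0.65 with the second. Ncoa4, the receptor for ferritin breakdown, averaged 22.8 ± 2.71 CPM in nonescalating and 12.8 ± 7.31 CPM in saline libraries (0.83 ± 0.31), and Ftl1, the ferritin light chain, 68.7 ± 28.3 CPM in nonescalating and 41.1 ± 21.3 CPM in saline libraries (0.74 ± 0.34).

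Several lists moved with saline replicate 5. The number of members tested changed by 1 for some lists when it was left out. The 13 nuclear long noncoding RNAs tested all had negative fold changes with it (median -0.87), and the 14 tested without it had a median of -0.28; Snhg14 was at -1.13 with it and -0.83 without it. The median of astrocyte markers was -0.95 over 10 tested with it and 0.25 over 11 tested without it, that of the 13 endothelial and mural markers -0.48 with it and 0.81 without it, and that of markers of D2 neurons -0.28 over 10 with it and 0.34 over 11 without it. The 13 oligodendrocyte markers had a median of 0.01 with it and 0.78 without it. The 14 Krüppel-like factors were at -0.17 and 0.25, and the 22 endoplasmic reticulum chaperone and stress genes at -0.02 and -0.18. Nnat, an imprinted gene, had 56.3 to 196 CPM in nonescalating libraries, 3163 CPM in saline replicate 5 and 21.1 to 238 CPM in the other saline libraries, and its log2 fold change was -2.85 with that library and -0.01 without it. The part of these cell types in the other differences was not tested.

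**Figure D5:**
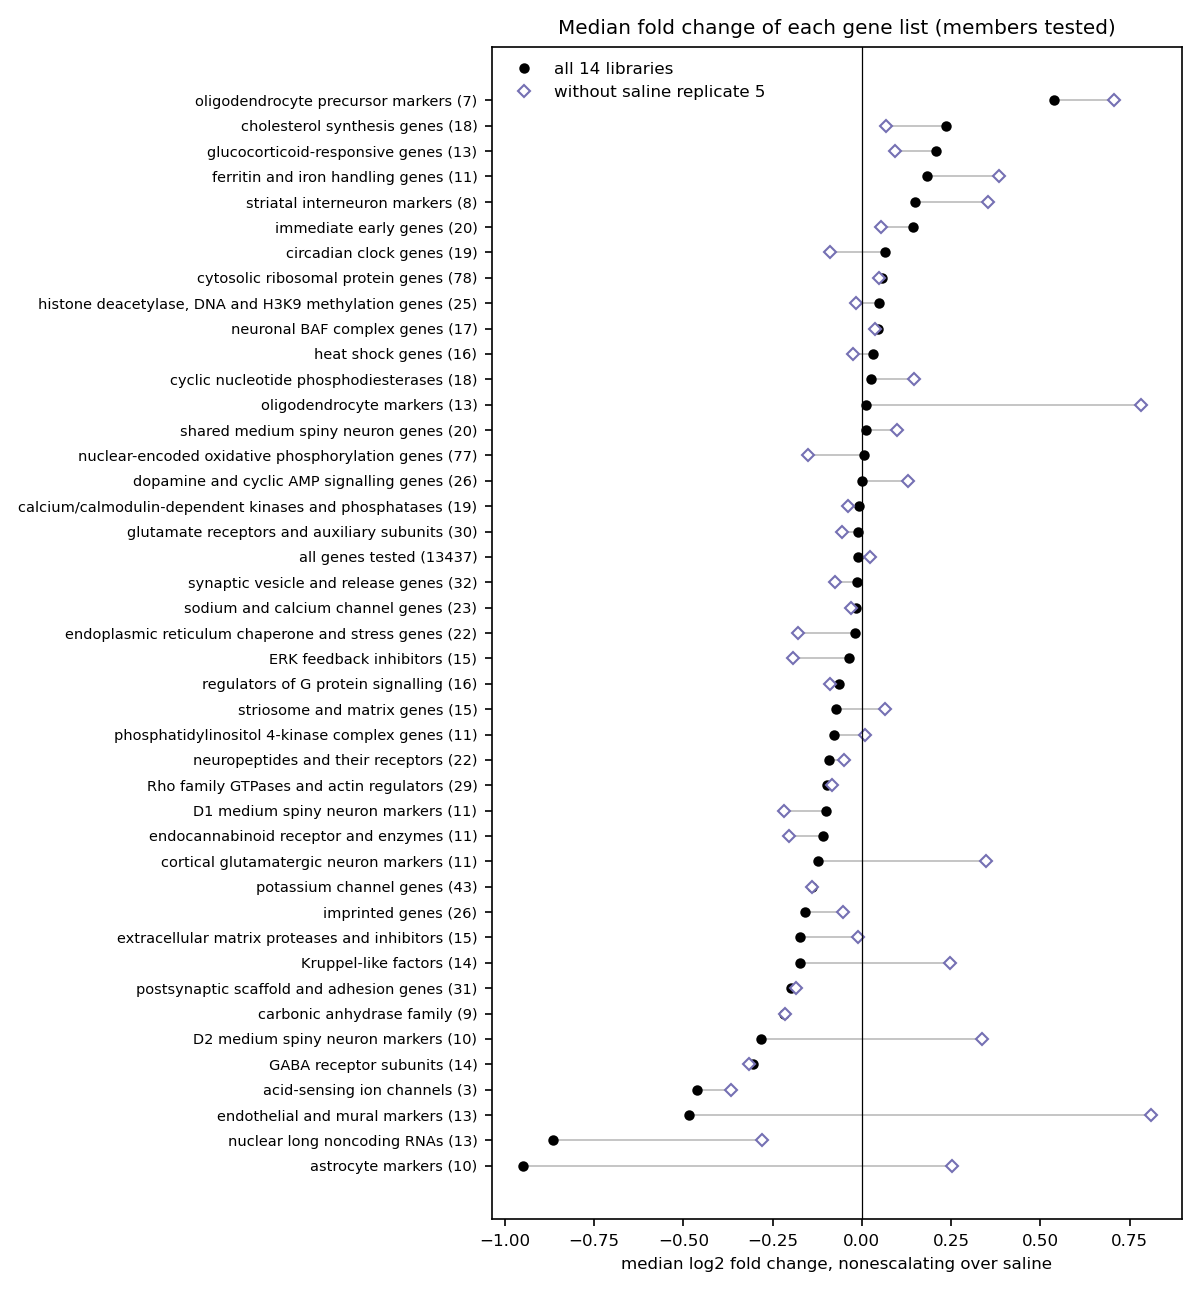
Median log2 fold change of nonescalating over saline for each gene list with at least 3 members tested with all 14 libraries (number in parentheses), with all 14 libraries (filled circles) and without saline replicate 5 (open diamonds); grey lines join the 2 medians. GABA receptor, potassium channel and postsynaptic genes keep their medians (-0.31, -0.14 and -0.20 with all libraries), while astrocyte, endothelial and D2 neuron markers cross 0.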

How the data were processed

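Ribosome-bound RNA was purified from dorsal striatum with antibodies to EGFP, per the labels' protocols. The authors deposited read counts per gene, 1 table a library. Alignment was to mm10 with STAR 2.0.0e and counting with HTSeq, per the submitters' processing notes. No source used here gives the annotation or strand setting, so overlapping or antisense genes cannot be separated, and Rpl10a counts include the transgene. Of each table, 32531 named genes were used and 6 other lines left out. Shares of read pairs on no gene are of pairs on genes, on no gene and ambiguous.

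The 19 purified libraries at 24 h (nonescalating, saline and escalating) entered 1 edgeR 4.0.16 quasi-likelihood fit (R 4.3.3; filterByExpr, TMM scaling, Benjamini-Hochberg adjusted p under 0.05), so that 3 groups share the estimate of spread. CPM are counts per 1e6 of TMM-scaled library size, with mean ± SD, and fold changes are log2 ± SE. DESeq2 1.42.0 and limma 3.58.1 with library quality weights were alternatives. The comparison with 1 month used all 39 purified libraries. Single values per library were compared by exact permutation tests. The edgeR procedure was tested on simulated counts. Gene positions come from GENCODE M21 (GRCm38) and promoter sequences from RefSeq (GRCm38.p6), matched by symbol; 205 of 205 named genes had a position.

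Genes were named by these rules: the 12 higher and 12 lower by lowest p with a mean of at least 5 CPM; up to 8 in each direction whose groups do not overlap; up to 6 called without saline replicate 5 or by limma; up to 4 of each of 44 lists; and 14 fixed genes. Symbols of sequence records were passed over, and some genes that these rules name are not reported here. Others are named as chosen after their values were seen, or belong to a list. The genes, lists and rules were chosen with earlier results of these data known, and lists are described by counts and medians, with no test. The labels do not say that replicate numbers pair the libraries, and the main fit used no pairing. No 2 libraries of a group were duplicates (46 pairs within groups, lowest chi-square per degree of freedom 8.89).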

Additional observations from a re-analysis of the deposited data

Results flagged for a closer look

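In 138 checks of the highest and lowest library of a group, 29 values lay farther from the other libraries of their group than Dixon's criterion allows. Of the 29, 10 were in saline replicate 5. Chance gives about 1 in 20 for normally distributed values not chosen from the data. The genes checked include leading genes chosen by p in these same libraries, so the 29 cannot be set against that share. In the nonescalating group, replicate 2 of the first set was high for Car11 (231 CPM), Thap6 (9.00 CPM), Nedd4l (2014 CPM) and Pkd2l2 (9.49 CPM). Replicate 4 of the first set was low for Pde4a (48.2 CPM) and high for Zfp385b (264 CPM), Atpaf2 (47.7 CPM), Usp20 (67.9 CPM), Tac1 (537 CPM) and Bdnf (9.90 CPM). In the second set, replicate 1 was high for summed oligodendrocyte markers (383 CPM), replicate 2 for Snx17 (25.2 CPM) and ependymal and choroid plexus markers (5.67 CPM), and replicate 3 for cortical glutamatergic neuron markers (515 CPM).

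In the saline group, replicate 5 was high for Car11 (546 CPM), Nod2 (82.2 CPM), Thap6 (321 CPM), Adgrd1 (115 CPM) and Gdpgp1 (182 CPM). It was also high for the summed markers of astrocytes (1287 CPM), oligodendrocytes (625 CPM), oligodendrocyte precursors (88.0 CPM), microglia (44.5 CPM) and endothelial and mural cells (2123 CPM). Saline replicate 3 was high for Ttc7b (687 CPM), Slc30a2 (66.3 CPM), Fos (9.56 CPM) and Npas4 (44.3 CPM), and saline replicate 6 for ependymal and choroid plexus markers (3.83 CPM). Without saline replicate 3, the log2 fold change of Ttc7b was -0.72, and no gene was called.

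The nonescalating over saline log2 fold change of Ttc7b differed between 24 h and 1 month by -1.10 in a test of the difference itself (edgeR adjusted p = 0.0460).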

How the results depend on the processing

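The number of genes called in nonescalating against saline libraries at 24 h was 0 by edgeR with size factors, no filter on low counts, a mean of at least 5 CPM, only the 2 groups, robust estimation, or either nonescalating set. It was 117 by DESeq2, 36 by limma with quality weights and 276 with all 39 purified libraries in the fit; the cause was not tested. Of the limma calls, 13 were also DESeq2 calls (36.1% of 36 and 11.1% of 117). Leaving out each library in turn gave 0 to 2 genes; the 2 were Ttc7b and Pde4a, without saline replicate 1. The difference between 24 h and 1 month was called for 1 gene, or 3 without saline replicate 5, and the difference between nonescalating sets for 0 genes, or 1 by DESeq2. Of 8 pairs with the same replicate number, 4 had correlated deviations over 0.1 (range -0.19 to 0.24), and 2 of 9 nonescalating libraries correlated best with their own number; a fit with the replicate block called 0 genes (lowest adjusted p 0.815). Fold changes of 51 of the 205 named genes were followed under these settings, 1272 values in all. Of these, 68 became called, 28 changed sign without being called and 0 called values changed sign. No gene was called in the main edgeR fit, and sign changes of the other named genes are not in this count. Of 45 list medians, 5 moved beyond the spread of the saline libraries without saline replicate 5 and 0 with size factors. That spread was the SD of a list's mean log2 CPM over the 5 saline libraries, so it included saline replicate 5 itself. Lists in which that library lay far out had a wide spread. The endothelial and mural markers, with a spread of 2.19, moved from -0.48 to 0.81 and are not among the 5. The count therefore does not show that the other lists were stable. The counts without saline replicate 5 of genes at an unadjusted p under 0.05 (721 higher and 827 lower) and of genes whose groups do not overlap (42 and 44) were added after seeing the data. Depth limits genes of a few CPM.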

Other observations

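Limma with library quality weights called several genes that edgeR did not rank first, each of them lower in nonescalating libraries. Snap25, a core protein of vesicle fusion, was at -0.73 (limma adjusted p = 0.0484), Calm2, which encodes calmodulin, at -0.87 (adjusted p = 0.0239), Nedd4l, a ubiquitin ligase acting on ion channels, at -0.64 (adjusted p = 0.0105) and Anks1b, a postsynaptic protein, at -0.59 (adjusted p = 0.0239). Snap25 and Calm2 are named after their values were seen. In the edgeR fit Snap25 was at -0.42 ± 0.23 (adjusted p = 0.459) and Calm2 at -0.46 ± 0.23 (adjusted p = 0.429), and the groups overlapped for both. Replicates 3 and 6 of the first nonescalating set had the highest limma weights, 5.39 and 3.31. In the edgeR fit Nedd4l averaged 1359 ± 282 CPM in nonescalating and 1887 ± 352 CPM in saline libraries (-0.47 ± 0.14, adjusted p = 0.198), and Anks1b averaged 1394 ± 274 CPM in nonescalating and 1852 ± 367 CPM in saline libraries (-0.41 ± 0.14, adjusted p = 0.262).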
